A study of Rattus norvegicus with 32 samples.

Results

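The genes described here encode contractile and calcium-handling proteins of fast-twitch muscle fibres. They were listed by symbol: Actn3, Myh1, Myh2, Myh4, Tnnt3, Tnni2, Tnnc2, Atp2a1, Casq1 and Pvalb. For each symbol, the array feature annotated to that symbol alone was taken, the one with the highest mean over all arrays where there were several, and symbols without such a feature were dropped. This left 5 of the 10 genes, among 14557 genes with a feature of their own: Actn3 (feature 17639339), Myh4 (17647051), Tnnt3 (17622489), Tnnc2 (17779261) and Casq1 (17686729). Each had exactly 1 such feature, and all 5 passed the filter that left out the dimmest 25% of genes. Myh1 and Myh2 shared 1 feature with Myh8 and are given no value. Tnni2, Atp2a1 and Pvalb were not named in the annotation used here. Casq1 is therefore the only sarcoplasmic reticulum gene of the list with values.

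RNA came from the red part of the tibialis anterior, a hindlimb muscle, of 32 male Zucker rats aged 18 weeks, and each rat gave 1 array. Obese rats on the ALA diet ate AIN-93G with 10% flaxseed oil, which is rich in alpha-linolenic acid (ALA). Obese rats on the LA diet ate AIN-93G with 10% safflower oil, which is rich in linoleic acid (LA), a fatty acid with 1 double bond fewer. Both oil groups were pair-fed to the calories eaten by the obese controls. Obese controls and lean controls ate AIN-93G without restriction. Each of the 4 groups held 8 rats, which arrived at 5 weeks of age and were fed their diet for 12 weeks. The obese animals of this strain lack a working leptin receptor, because its gene is mutated. In bulk muscle RNA, fewer fibres of a type and less RNA per fibre cannot be told apart.

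Skeletal muscle fibres differ in the isoforms of their contractile proteins. Fast fibres use fast myosin heavy chains and fast troponin subunits, while slow fibres use Myh7, Tnnt1 and Tnnc1. Contraction starts when calcium leaves the sarcoplasmic reticulum and binds troponin C, and it ends when calcium is pumped back. In the rat the tibialis anterior is a mostly fast muscle, and its red part is richer in oxidative fibres. Actn3 encodes the alpha-actinin that anchors thin filaments at the Z-disc of fast fibres. Myh4 encodes the type IIb myosin heavy chain, the motor of the fastest fibres. Tnnt3 encodes fast troponin T, which ties the troponin complex to tropomyosin, and Tnnc2 encodes the calcium-binding troponin C of fast fibres. Casq1 encodes the main calcium store protein of the sarcoplasmic reticulum in fast fibres.

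Promoter windows are shown for 4 of the 5 genes with values, those that RefSeq's table for the GRCr8 assembly held. Further on, the correlation of Actn3 with each of the other 3 is tested from rat to rat. The correlation with Casq1 did not pass its test once the obese controls lowest in both genes were left out. A link between the windows and those correlations was not tested. Tnnt3 is named only. Each window covers 250 bases before the transcript start and 50 after, 5′ to 3′ on the gene's strand. Capitals mark matches to the motifs searched on both strands: the E-box CANNTG, the MCAT element CATTCC, the TATA box TATAAA, and the MEF2 and CArG boxes. Actn3 lies on the minus strand at chr1:211604352-211604651, Myh4 on the plus strand at chr10:52421898-52422197, Tnnc2 on the minus strand at chr3:173935290-173935589 and Casq1 on the minus strand at chr13:87212661-87212960.
Actn3: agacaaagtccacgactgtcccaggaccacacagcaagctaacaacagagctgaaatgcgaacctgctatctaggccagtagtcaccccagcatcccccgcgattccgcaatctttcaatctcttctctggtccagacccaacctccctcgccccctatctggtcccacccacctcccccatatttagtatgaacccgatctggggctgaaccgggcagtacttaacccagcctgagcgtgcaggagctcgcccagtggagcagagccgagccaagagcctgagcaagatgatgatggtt
Myh4: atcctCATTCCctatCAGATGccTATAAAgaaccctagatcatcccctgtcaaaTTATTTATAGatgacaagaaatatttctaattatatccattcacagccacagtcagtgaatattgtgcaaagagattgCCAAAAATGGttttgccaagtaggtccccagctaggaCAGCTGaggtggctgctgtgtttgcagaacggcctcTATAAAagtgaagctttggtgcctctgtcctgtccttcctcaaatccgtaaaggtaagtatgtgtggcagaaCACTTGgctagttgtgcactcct
Tnnc2: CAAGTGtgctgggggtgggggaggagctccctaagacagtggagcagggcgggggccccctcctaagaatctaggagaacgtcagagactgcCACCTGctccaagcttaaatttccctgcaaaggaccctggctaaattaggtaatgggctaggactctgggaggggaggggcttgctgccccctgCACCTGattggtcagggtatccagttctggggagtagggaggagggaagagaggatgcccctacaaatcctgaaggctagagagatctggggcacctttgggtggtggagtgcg
Casq1: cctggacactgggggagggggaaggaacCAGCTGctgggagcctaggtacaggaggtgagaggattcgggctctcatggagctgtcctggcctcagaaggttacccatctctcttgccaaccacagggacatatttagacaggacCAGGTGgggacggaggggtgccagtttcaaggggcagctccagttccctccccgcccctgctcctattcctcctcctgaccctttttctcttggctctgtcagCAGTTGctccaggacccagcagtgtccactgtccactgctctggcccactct
The Myh4 window held 3 E-boxes, 1 MCAT element, 3 TATA boxes, 1 MEF2 box and 1 CArG box, and 1 of the TATA matches lay inside the MEF2 match. The Tnnc2 and Casq1 windows held 3 E-boxes each and none of the other motifs, and the Actn3 window held no match to these letters. Among 27457 promoter windows of the same length, 71.6% held an E-box, 13.9% an MCAT element, 14.3% a TATA box, 3.37% a MEF2 box and 1.64% a CArG box. A match describes the letters only. In GRCr8, Myh2, Myh1, Myh4 and Myh8 follow one another on chromosome 10. Their coding sequences are closely related, so the Myh4 feature may also have measured RNA of its neighbours, which was not tested.

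Values are log2 intensities made by the authors with RMA, a method that corrects background, equalises the distribution of values across arrays and summarises the probes of a feature. Array medians ran from 3.83 to 3.99 and correlations between arrays from 0.966 to 0.992. No arrays were identical. The 6 measured genes common to all skeletal muscle, which include Acta1 and Ckm, averaged between 11.49 and 11.71 in every array. Some arrays stood apart. Obese controls 4 and 7 had means of 7.49 and 7.68 over 9 genes of muscle development and denervation, and lean control 2 had 7.00, against 5.00 to 6.16 in the other arrays. Obese control 5 had a mean of 9.51 over 5 hepatocyte genes, against at most 4.83 elsewhere. LA rats 7 and 8 had the highest means over 14 slow-fibre genes among the obese rats, 8.71 and 9.40. LA rat 7 also had the highest means of all arrays over 5 tendon genes (8.19), 11 fibroblast genes (8.28) and 7 adipocyte genes (6.61). LA rat 8 came next in the tendon and fibroblast genes, with 6.42 and 7.38. Values without some of these arrays are given where they moved a difference, a count or a call.

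Actn3 separated obese controls 4 and 7 from all other rats. It ran from 11.89 to 12.08 with a median of 12.00 in the ALA group and from 11.72 to 12.18 with a median of 11.91 in the LA group. Obese controls ran from 10.99 to 11.91 with a median of 11.87, and lean controls from 11.74 to 11.96 with a median of 11.85. Obese controls 4 and 7 had 10.99 and 11.04, and the other obese controls lay between 11.81 and 11.91, inside the range of the lean controls. The mean was 12.00 ± 0.071 in the ALA group, 11.90 ± 0.14 in the LA group, 11.66 ± 0.40 in obese controls and 11.85 ± 0.088 in lean controls (SD, n = 8 each). The SD of Actn3 in obese controls was larger than that of 93.0% of the genes tested, and its SD in the ALA group larger than that of only 3.66%.

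Myh4 showed no such break, and its 4 groups overlapped. It ran from 12.02 to 12.32 with a median of 12.17 in the ALA group, from 11.78 to 12.31 with a median of 12.08 in the LA group, from 11.81 to 12.12 with a median of 12.03 in obese controls, and from 11.77 to 12.20 with a median of 12.15 in lean controls. The lowest rats were lean control 2 (11.77), LA rat 8 (11.78), and obese controls 5 (11.81) and 7 (11.82). Obese control 4, low for Actn3, had a Myh4 value of 12.01, near the median of its group.

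The troponin genes were almost level across the 32 rats. Tnnt3 ran from 12.20 to 12.32 with a median of 12.27 in the ALA group, from 12.16 to 12.39 (median 12.29) in the LA group, from 12.17 to 12.31 (median 12.24) in obese controls and from 12.24 to 12.35 (median 12.29) in lean controls. Tnnc2 ran from 11.98 to 12.15 with a median of 12.07 in the ALA group, from 11.93 to 12.17 (median 12.08) in the LA group, from 11.97 to 12.12 (median 12.05) in obese controls and from 11.93 to 12.17 (median 12.03) in lean controls. All groups overlapped for both genes, and neither obese control 4 nor 7 stood apart in Tnnt3 (12.23 and 12.20) or Tnnc2 (12.02 and 11.97). Pooled within groups, the SD was 0.0499 for Tnnt3 and 0.0673 for Tnnc2, against a median of 0.176 over the genes tested. These genes lie near the top of the scale. Among 71 other tested genes with a mean of at least 11, the median SD was 0.125, and 3 had a smaller SD than Tnnt3 and 7 a smaller one than Tnnc2. Whether signal was compressed at that level was not tested.

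Casq1 set the same 2 obese controls apart as Actn3 did. It ran from 11.40 to 11.69 with a median of 11.53 in the ALA group and from 11.21 to 11.77 with a median of 11.46 in the LA group. Obese controls ran from 10.83 to 11.56 with a median of 11.47, and lean controls from 11.43 to 11.92 with a median of 11.55. Obese controls 4 and 7 had 10.97 and 10.83, below every other rat, while the other 6 obese controls lay between 11.45 and 11.56. The highest value, 11.92, was that of lean control 2.

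**Figure D1:**
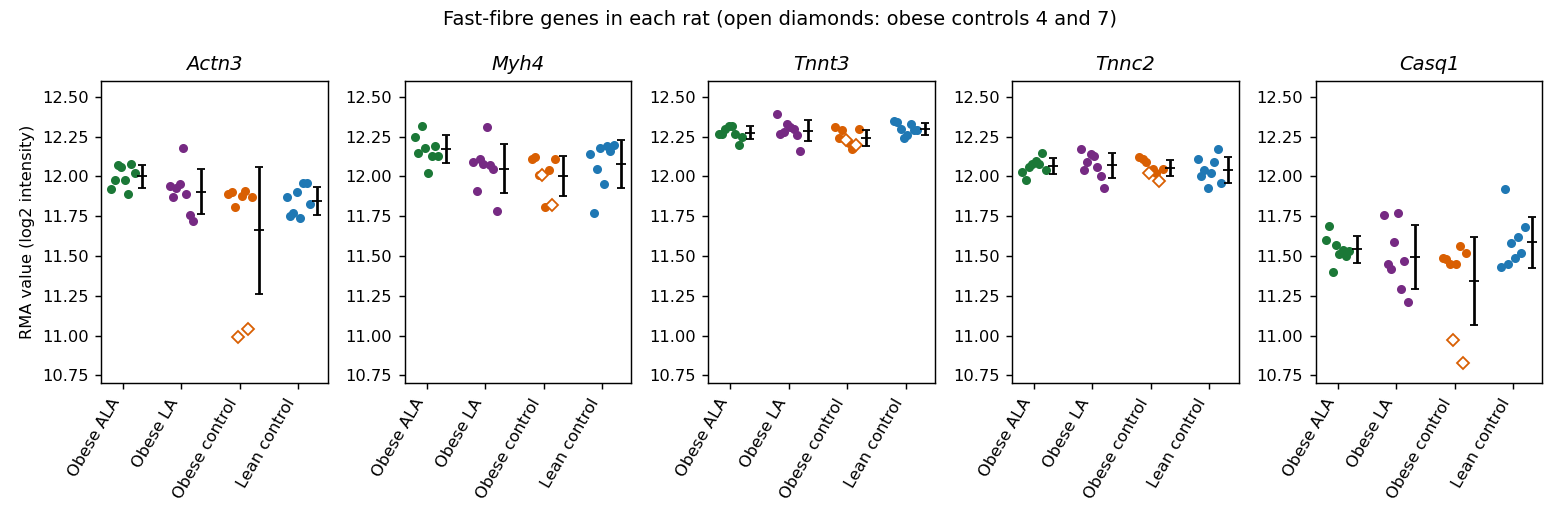
RMA values (log2 intensity) of Actn3, Myh4, Tnnt3, Tnnc2 and Casq1 in each of 32 rats, 8 per group; bars give the mean and SD, and open diamonds are obese controls 4 and 7. Those 2 rats have Actn3 values of 10.99 and 11.04 and Casq1 values of 10.97 and 10.83, below all others, and lie within their group for Tnnt3 and Tnnc2.

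Obese controls were set against lean controls to see what the genotype does to the muscle on one diet. No fast-fibre gene differed past the threshold, which was an adjusted p below 0.05 over the 10918 genes tested (limma, a linear model with variances shared across genes). The largest difference was in Casq1, 11.34 ± 0.28 in obese controls and 11.59 ± 0.16 in lean controls (SD, n = 8 each), a log2 difference of -0.24 (95% interval -0.44 to -0.050). This is 1.18-fold lower in obese controls, with a limma p of 0.0153 before adjustment and 0.198 after it. The difference in Actn3 was -0.19 (-0.40 to 0.029, limma adjusted p = 0.414). Myh4 differed by -0.076 (-0.22 to 0.065), Tnnt3 by -0.054 (-0.14 to 0.028) and Tnnc2 by 0.012 (-0.081 to 0.10). Lean control 2 had the lowest Myh4 value of all rats, and without it the Myh4 difference was -0.12. Of the 5 fast-fibre genes 0 passed, and Casq1 was the only one with p below 0.05 before adjustment. Over all genes tested 1.76% passed, 0.43% as higher and 1.33% as lower in obese controls. Before adjustment, 14.8% of all genes tested had a limma p below 0.05.

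The differences in Actn3 and Casq1 rested largely on obese controls 4 and 7. In both genes these 2 were the only obese controls below every lean control. Without them, the Actn3 difference was 0.028 (95% interval -0.092 to 0.15), above 0, and the Casq1 difference was -0.095 (-0.26 to 0.064), with limma adjusted p-values of 0.897 and 0.666. For Tnnt3, 4 of 8 obese controls lay below every lean control, with a difference under 0.1 log2 units. Such counts of rats were not made over all genes tested, here or in the comparisons that follow.

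Slow-fibre genes moved in the same comparison, as measured on the same arrays. Of 14 slow-fibre genes tested, 10 were lower on average in obese controls and 4 were higher (Pln, Sln, Csrp3 and Myh6). Past the threshold, 7 were lower and 0 were higher. The median log2 difference of the 14 was -0.65, beside 0.0019 over all genes tested. Tnnt1, slow troponin T, averaged 7.04 ± 0.74 in obese controls and 9.55 ± 0.32 in lean controls (SD, n = 8 each), a log2 difference of -2.52 (limma adjusted p = 0.00118). Tnnc1, the troponin C of slow and cardiac muscle, differed by -2.47, Atp2a2, the calcium pump of slow fibres, by -1.58 and Myh7, the slow myosin heavy chain, by -2.55. In these 4 genes, named for their small p, the groups did not overlap, with all 8 obese controls on the lower side. How many of all genes tested separate in this way was not counted. The fast counterparts Tnnt3, Tnnc2 and Myh4 sat higher on the scale. Whether differences at those levels are on an equal footing with those of the slow genes was not tested. With obese controls 4 and 7 left out, 5 of the 14 were called lower.

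Other genes of fast fibres did not pass either. Of the 5 other fast sarcomere genes tested, 0 passed and all 5 were lower on average in obese controls, with a median log2 difference of -0.12. Myom2, an M-band protein, differed by -0.18 (limma adjusted p = 0.351) and Myl11, the fast regulatory light chain, by -0.12 (adjusted p = 0.411). Of 11 genes of excitation-contraction coupling, 0 passed (1, Jph2, without LA rats 7 and 8) and 9 were lower, with a median of -0.081. Jph2, which holds the sarcoplasmic reticulum near the T-tubule, differed by -0.50 (limma adjusted p = 0.0649), and Stac3, an adaptor of the calcium channel, by -0.14 (adjusted p = 0.345). Of 11 glycolytic genes of fast fibres, 0 passed and 10 were lower, with a median of -0.080. Gpd1, glycerol-3-phosphate dehydrogenase, averaged 9.82 ± 0.85 in obese controls and 10.36 ± 0.16 in lean controls, with a limma adjusted p of 0.203. Pgam2, muscle phosphoglycerate mutase, averaged 11.43 ± 0.36 in obese controls and 11.66 ± 0.063 in lean controls (limma adjusted p = 0.257, SD, n = 8 each).

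The glycolytic and sarcomere counts also turned on obese controls 4 and 7. Their means over the 11 glycolytic genes were 10.09 and 9.82, against 10.50 to 11.11 in the other 30 rats. Their means over 12 macrophage genes were 5.86 and 6.08, and the remaining obese controls spanned 5.13 to 5.43; LA rat 7 also had 6.10. The part of these lists in the result was not tested. Without these 2 rats, 7 of the 11 glycolytic genes and 3 of the 5 sarcomere genes were higher in obese controls, with medians of 0.010 and 0.035, and still 0 passed. The excitation-contraction coupling genes had 9 of 11 lower without them as well (median -0.068), but 6 of 11 (median -0.018) without a wider set of 6 arrays (ALA rat 3, LA rats 7 and 8, and obese controls 4, 5 and 7). Among 10 regulators of fibre type, only Myod1, a myogenic transcription factor, passed. It averaged 7.18 ± 0.36 in obese controls and 8.01 ± 0.34 in lean controls (SD, n = 8 each), a log2 difference of -0.83 (limma adjusted p = 0.0206).

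The comparison of the ALA diet with the obese control diet sets pair-fed obese rats on flaxseed oil against obese rats fed without restriction. The oil and the way of feeding cannot be told apart in it. No fast-fibre gene passed, although Actn3, Myh4 and Casq1 were higher on average with limma p-values below 0.05 before adjustment. Actn3 differed by 0.34 log2 units (95% interval 0.12 to 0.55), which is 1.26-fold higher in the ALA group, with a limma p of 0.00302 before adjustment and 0.446 after it. Of the 8 ALA rats, 7 lay above every obese control in Actn3. Myh4 differed by 0.17 (0.026 to 0.31, limma adjusted p = 0.537), and again 7 of 8 ALA rats lay above every obese control. Casq1 differed by 0.20 (0.0035 to 0.39, limma adjusted p = 0.589), with 3 of 8 above. How many of all genes tested reach such counts is not known. Tnnt3 differed by 0.033 (limma adjusted p = 0.834) and Tnnc2 by 0.013 (adjusted p = 0.960). Over all genes tested, limma called 0 (0%) in this comparison, as it did with a robust variance prior and with array weights, and 918 had p below 0.05 before adjustment.

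Leaving out obese controls 4 and 7 lowered the differences in Actn3 and Casq1 by more than 1.5 times and turned the sign of the small one in Tnnc2, to -0.0066. Actn3 then differed by 0.12 (95% interval 0.0042 to 0.24, limma adjusted p = 0.980) and Casq1 by 0.049 (-0.11 to 0.21, adjusted p = 0.997), while Myh4 differed by 0.14 (-0.013 to 0.29, adjusted p = 0.980). The set of 6 arrays was taken over from earlier results of these data. ALA rat 3, which had the highest Myh4 value, is in it, and lean control 2 is not. Without these 6, Myh4 differed by 0.073 and Actn3 by 0.11. In the other fast-fibre lists, all 5 other sarcomere genes (median 0.14) and all 11 glycolytic genes (median 0.23) were higher on average in the ALA group, and 0 passed. The 11 genes of excitation-contraction coupling were mixed, with 7 higher and 4 lower (median 0.075). Gpd1 averaged 10.41 ± 0.072 in the ALA group and 9.82 ± 0.85 in obese controls, a log2 difference of 0.59 (limma adjusted p = 0.511). Once obese controls 4 and 7 were left out, 4 of 5 sarcomere genes (median 0.059), 8 of 11 glycolytic genes (median 0.045) and 8 of 11 coupling genes (median 0.021) were higher. Without the 6 arrays 5 coupling genes were higher and 6 lower (median -0.015).

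The LA diet against the obese control diet passed no fast-fibre gene either, and Actn3, Casq1 and Myh4 were again higher on average. Actn3 differed by 0.24 (95% interval 0.028 to 0.46, limma adjusted p = 0.752). Before adjustment its limma p was 0.0277. Above every obese control lay 4 of 8 LA rats. Casq1 differed by 0.15 (-0.041 to 0.35, limma adjusted p = 0.852) and Myh4 by 0.047 (-0.094 to 0.19, adjusted p = 0.931). Tnnt3 differed by 0.047 and Tnnc2 by 0.018. Of all genes tested, limma called 0 (0%), as it did with a robust variance prior and with array weights, and 682 had p below 0.05 before adjustment. Without obese controls 4 and 7, Actn3 differed by 0.029 (-0.091 to 0.15), Casq1 by 0.0042 (-0.16 to 0.16), Myh4 by 0.018 and Tnnc2 by -0.0014. With LA rats 7 and 8 left out instead, Myh4 differed by 0.093, Tnnt3 by 0.072 and Tnnc2 by 0.053. Both oil groups were compared with the same 8 obese controls, so these 2 rats entered both comparisons.

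ALA and LA were compared directly, as 1 pair of oils at the same share of the diet and for the same time. Actn3 averaged 12.00 ± 0.071 in the ALA group and 11.90 ± 0.14 in the LA group (SD, n = 8 each), a log2 difference of 0.095 (95% interval -0.12 to 0.31, limma adjusted p = 0.890). Myh4 averaged 12.17 ± 0.088 in the ALA group and 12.05 ± 0.16 in the LA group, a difference of 0.12 (-0.021 to 0.26, limma adjusted p = 0.737). The Casq1 difference was 0.045 (-0.15 to 0.24), that of Tnnt3 -0.014 (-0.096 to 0.069) and that of Tnnc2 -0.0052 (-0.098 to 0.087). None of the 5 passed, and the interval of Actn3 leaves room for a difference of up to 1.24-fold. Leaving out LA rats 7 and 8, the differences were 0.039 for Actn3, 0.074 for Myh4, -0.039 for Tnnt3, -0.040 for Tnnc2 and -0.0066 for Casq1. Of all genes tested, limma called 0 (0%), as it did with a robust variance prior and with array weights, and 758 had p below 0.05 before adjustment. The LA group was more spread out than the ALA group: the mean of the 5 genes ran from 11.98 to 12.04 in ALA rats and from 11.76 to 12.14 in LA rats. The lowest LA rat by this mean was LA rat 8, which also had the highest slow-fibre mean, and the difference in spread was not tested.

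Set against the lean controls, neither oil group had a fast-fibre gene past the threshold. In the ALA group Actn3 differed by 0.15 (95% interval -0.063 to 0.37, limma adjusted p = 0.732) and Myh4 by 0.091 (-0.050 to 0.23, adjusted p = 0.769), and 6 of 8 ALA rats lay above every lean control in Actn3. Tnnt3 differed by -0.021, Tnnc2 by 0.025 and Casq1 by -0.046. Over all genes tested, 0.888% were called in this comparison, 0.321% as higher and 0.568% as lower in the ALA group. In the LA group the differences were 0.057 for Actn3, -0.029 for Myh4, -0.0075 for Tnnt3, 0.030 for Tnnc2 and -0.091 for Casq1 (limma adjusted p = 0.743 for Casq1), while 1.62% of all genes were called, 0.687% as higher and 0.934% as lower in the LA group. Of the 14 slow-fibre genes, 5 were called lower in the ALA group than in lean controls, among them Tnnt1 (log2 difference -2.11, limma adjusted p = 0.0114), and 0 were called in the LA group. These counts moved with the arrays left out. With LA rats 7 and 8 left out, 7 were called lower in the ALA group and 6 in the LA group. With the 6 arrays left out these counts were 9 in the ALA group and 7 in the LA group. When obese controls 4 and 7 were dropped, 6 were called in the ALA group and 1 (Myl3, a slow light chain) in the LA group, and when lean control 2 was dropped, 3 in the ALA group and 0 in the LA group. Whether the oil groups differed from each other in this was tested gene by gene in the comparison of ALA with LA, which called 0 of the 14. Without lean control 2, Myh4 differed by 0.048 in the ALA group and by -0.072 in the LA group, and with LA rats 7 and 8 left out the LA group differed by 0.11 in Actn3, 0.017 in Myh4, 0.018 in Tnnt3, 0.065 in Tnnc2 and -0.040 in Casq1. All comparisons with lean controls shared the same 8 arrays.

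**Figure D2:**
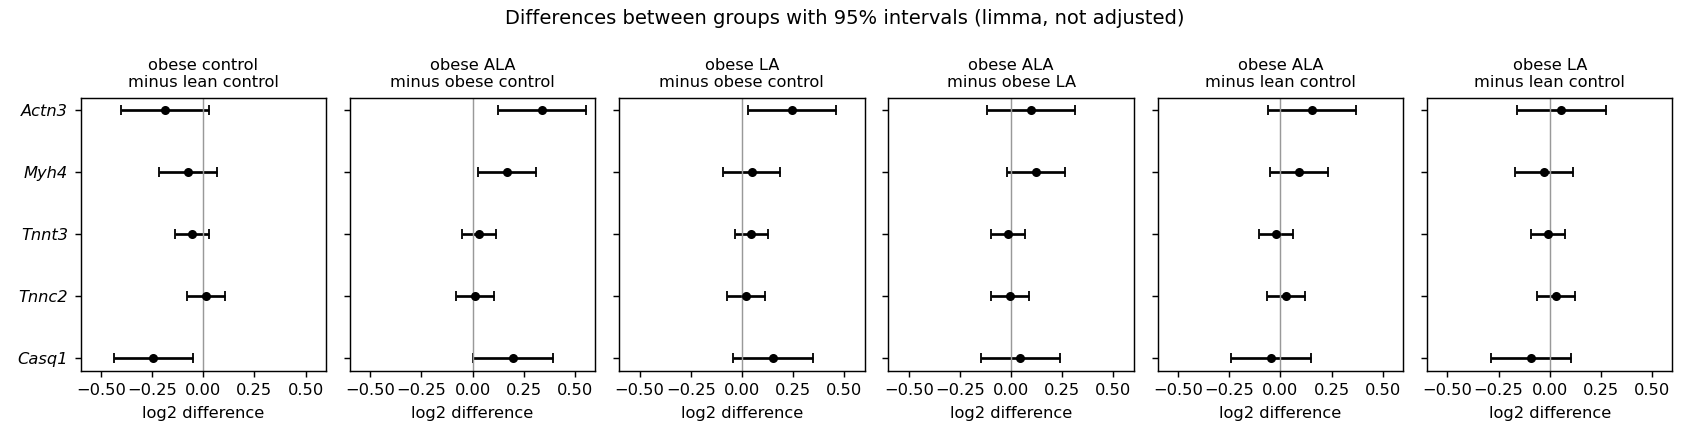
Log2 differences between groups for the 5 fast-fibre genes in 6 comparisons, with 95% intervals from limma that are not adjusted for multiple testing. In ALA against obese controls the intervals of Actn3 (0.12 to 0.55), Myh4 (0.026 to 0.31) and Casq1 (0.0035 to 0.39) lie above 0, and no gene passes an adjusted p of 0.05 in any panel.

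Beyond group means, the fast-fibre genes were compared rat by rat. Each value was taken as its deviation from the mean of its own group, and the 10 pairs among 5 genes were correlated over 32 rats. P-values came from 100000 two-sided permutations within groups and were adjusted over the 10 pairs. Leaving out obese controls 4 and 7, 3 pairs passed: Actn3 with Myh4, Actn3 with Tnnc2, and Tnnt3 with Tnnc2. With all rats, Actn3 with Casq1 passed as well.

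Actn3 and Myh4 had a Pearson r of 0.45 (permutation adjusted p = 0.0239) and a Spearman rho of 0.61 (adjusted p = 0.0019) over all 32 rats. Without obese controls 4 and 7 the r was 0.68 (n = 30, permutation adjusted p = 0.0028) and the rho 0.63. Within groups r was 0.30 in the ALA group, 0.86 in the LA group, 0.44 in obese controls and 0.78 in lean controls (n = 8 each, no test). With all rats, 697 of 10917 other genes (6.38%) had a higher r with Actn3 than Myh4 did, and 19 in those 30 rats. For the other passing pairs these counts were 650 and 124 for Tnnc2 with Actn3, and 73 and 1053 for Casq1 with Actn3. For Tnnc2 with Tnnt3 they were 29 and 56. Actn3 with Myh4 did not pass by r without obese control 7 alone, LA rat 5 alone or LA rat 8 alone. Its r lay between 0.37 and 0.58 over all single arrays left out.

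Actn3 and Tnnc2 had an r of 0.47 (permutation adjusted p = 0.00655) and a rho of 0.56 (adjusted p = 0.0023), and without obese controls 4 and 7 an r of 0.56 (adjusted p = 0.022). Within groups r was 0.35 in ALA rats, 0.78 in LA rats, 0.67 in obese controls and 0.48 in lean controls. The fast troponin subunits Tnnt3 and Tnnc2 had an r of 0.57 (permutation adjusted p = 0.00655) and a rho of 0.54 (adjusted p = 0.00847), and an r of 0.40 without the 2 rats farthest out in Tnnt3, LA rats 1 and 8. Within groups this r was -0.18 in ALA rats, 0.94 in LA rats, 0.66 in obese controls and 0.45 in lean controls, so the ALA group did not share its direction.

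Actn3 and Casq1 fell into clusters: obese controls 4 and 7 were far below the rest in both. Their r was 0.73 over all 32 rats (rho 0.55, permutation adjusted p = 0.0123 for r and 0.016 for rho) and 0.33 without these 2 (n = 30, permutation adjusted p = 0.279). Within groups r was -0.45 in ALA rats, 0.75 in LA rats, 0.98 in obese controls and -0.21 in lean controls, so the relation rested on those obese controls and the LA group. In the LA group all 10 pairs had a positive r, between 0.62 and 0.94. In the ALA group only the pairs of Actn3 with Myh4 and with Tnnc2 had one, and this contrast was not tested.

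**Figure D3:**
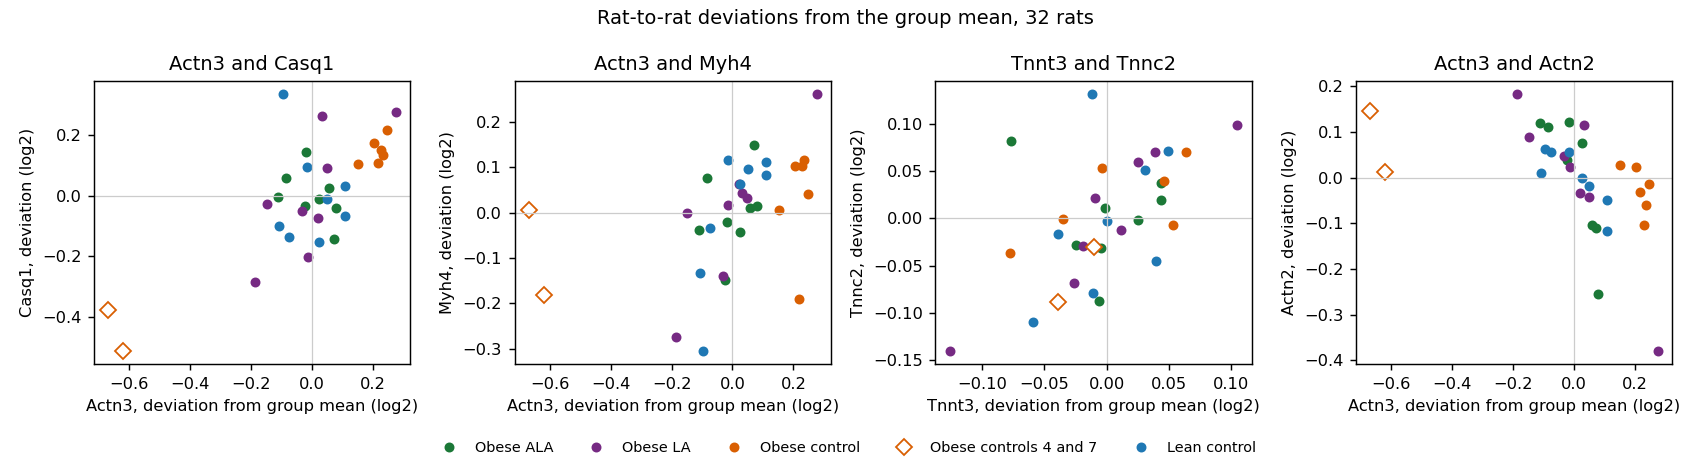
Deviations from the group mean (log2) of each rat for 3 pairs of fast-fibre genes and for Actn3 with its slow- and fast-fibre relative Actn2; colours give the group, open diamonds obese controls 4 and 7. The 2 diamonds sit alone at the lower left for Actn3 and Casq1, whereas the rest of the rats carry the relation of Actn3 with Myh4 (r = 0.68 without them).

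**Figure D4:**
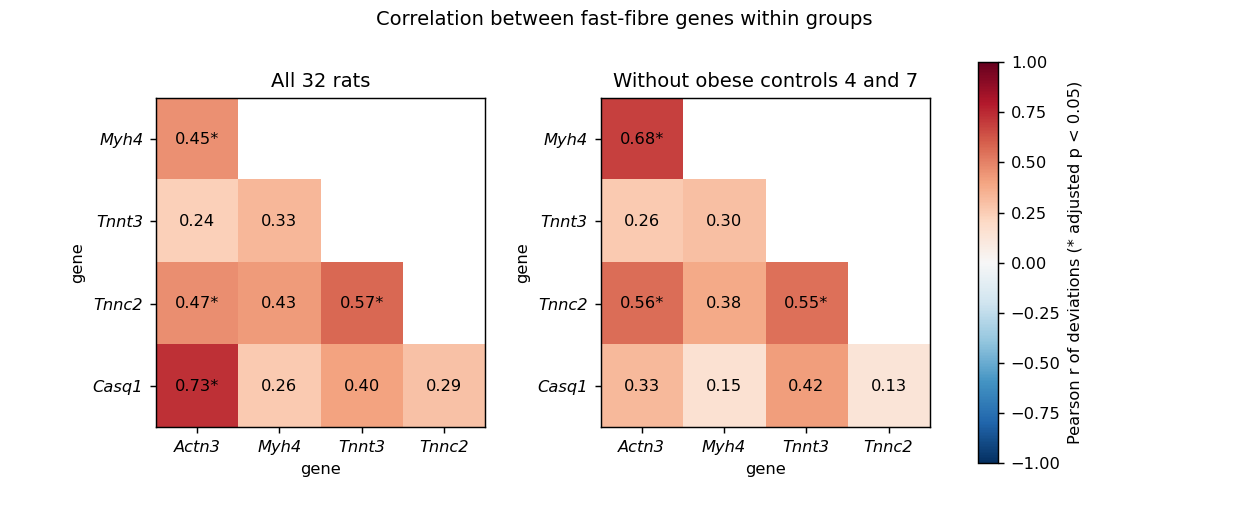
Pearson r of deviations from group means for the 10 pairs of fast-fibre genes, over 32 rats and over the 30 left without obese controls 4 and 7; asterisks mark a permutation adjusted p below 0.05. Actn3 with Casq1 has an r of 0.73 with these 2 rats and 0.33 without them.

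The scale of the arrays bore on these counts. Centring each array on its median gave 9 passing pairs by r, and a second quantile normalisation gave 0 by r and 3 by rho. The points of every pair share their arrays.

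The fast-fibre genes were also set against 14 slow-fibre genes in the same way, a comparison added after values had been seen. Of the 70 pairs, 61 had a negative r, and 20 passed by r (permutation, adjusted over the 70 pairs), all of them negative. By rho 9 passed. The list holds Actn2, the alpha-actinin that all fibres express, and without it 56 of 65 pairs were negative, 17 passed by r and 6 by rho. With all rats, no pair with Myh7, Myl3, Tnnt1 or Tnnc1 passed. Actn3 had a positive r with Myh7 (0.12) and Myl3 (0.33). Without obese controls 4 and 7, some pairs with these genes passed, such as Actn3 with Myl3 (r = -0.81, permutation adjusted p = 0.0007). How often pairs with genes outside the list would pass was not tested. Tnnc2 and Tnnt3 each had a negative r with all 14. By gene, 6 pairs of Tnnc2 passed, 6 of Actn3, 5 of Myh4, 2 of Tnnt3 and 1 of Casq1. The genes named from these pairs were chosen for their values. Actn3 ran against Actn2 with an r of -0.52 and a rho of -0.73 (permutation adjusted p = 0.0007 for each, the smallest these permutations can give over 70 pairs). Without obese controls 4 and 7 that r was -0.83, and within groups it was -0.83 in ALA rats, -0.91 in LA rats, -0.69 in obese controls and -0.82 in lean controls.

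Tnnc2 ran against Csrp3, a Z-disc protein of slow and cardiac muscle, with an r of -0.59 (rho -0.60, permutation adjusted p = 0.0091 and 0.0135). Actn3 with Sln, which restrains the calcium pump, had an r of -0.72 over all rats and -0.50 without obese controls 4 and 7 (permutation adjusted p = 0.0091 and 0.094). Without those 2 rats 64 of 70 pairs were negative, and 20 passed by r and 7 by rho. Csrp3 and Sln were higher on average in obese than in lean controls, whereas Myh7, Tnnt1 and Tnnc1 were lower.

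The genes closest to each fast-fibre gene, by the r of deviations over 32 rats, are given as a description with no test. Actn3 was closest to Gpd1 (r = 0.95), Mybpc2, the fast myosin-binding protein C (0.94), and Slc16a3, a lactate transporter (0.91). Without obese controls 4 and 7 these were 0.75, 0.71 and 0.46. Casq1 was closest to Hhatl (0.90), Myom2 (0.87) and Rpl3l, a ribosomal protein of striated muscle (0.84), and 0.83, 0.72 and 0.68 without those rats. Myh4 was closest to Vapa, an endoplasmic reticulum anchor protein (0.83), Vkorc1l1 (0.80) and Zfand3 (0.79). Tnnt3 was closest to Mtfr1l (0.67), Rdh13 (0.67) and Eef1a2, a translation elongation factor of muscle and neurons (0.65), and Tnnc2 to Timm8b, a mitochondrial import chaperone (0.74), Plpp7 (0.70) and Ube2d1, a ubiquitin-conjugating enzyme (0.70). For Myh4, Tnnt3 and Tnnc2 each of these r values moved by less than 0.1 without obese controls 4 and 7.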

How the data were processed

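The authors deposited log2 intensities made with RMA, per the submitters' processing notes, from 100 ng of total RNA per rat labelled with the GeneAtlas WT Plus protocol, per the labels' protocols; the RMA version and its settings were not given in the sources used here. Quantile normalisation, a usual step of RMA, would remove a shift shared by most genes. Of 36685 features, 14824 had 1 gene symbol, 829 several and 21032 none here. For each of 14557 genes the single-symbol feature with the highest mean was used, and the dimmest 25%, below 3.35, were left out. A mean per group was fitted to the 10918 remaining genes over all 32 arrays with limma 3.58.1 in R 4.3.3, with two-sided p-values and Benjamini-Hochberg adjustment within each comparison. The number of arrays limits the precision: differences had a median standard error of 0.0875. Fits and correlations were tested on simulated data with known answers. Correlations, list counts, figures and promoter matches were made with Python 3.11.15, pandas 2.3.3, numpy 2.4.6 and matplotlib 3.10.9. Alternatives were other filters, scalings, variance priors and array weights, a fit of each pair of groups alone, a block for the replicate number, and fits without single arrays or sets of arrays. The fast-fibre genes, lists and alternatives were chosen with earlier results of these data known. Named genes were all 5 fast-fibre genes, the 3 genes closest to each, up to 4 called genes of each list by smallest p, and otherwise the 2 with the smallest p in obese against lean controls. Actn2, Csrp3, Sln and Myl3 fall outside this rule and were chosen after their values were seen. Replicate numbers are not stated to pair rats and were not used as pairs. One listed gene, Mylpf, was matched through its current symbol Myl11.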

Additional observations from a re-analysis of the deposited data

How the results depend on the processing

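No fast-fibre gene was called by limma in any of the 6 comparisons under any of the 46 alternatives to each; the lowest adjusted p was 0.152, for Casq1 in obese against lean controls with 1 array left out. Over these alternatives there were 1380 values, and 36 changed sign, in 13 of the 30 differences. The largest difference to change sign was Actn3 in obese against lean controls, -0.19 with all arrays and 0.028 without obese controls 4 and 7. The others that changed sign were below 0.1 in size. Many of the 1380 values could not move. Filters, variance priors, the p threshold and a fit of each pair of groups alone leave the group means as they are. So does an array left out of a group not compared. The share of sign changes among the values that could move was not counted. The count of correlated pairs was 4 of 10 as reported, 1 without the 6 arrays named in the report, 0 when quantile normalisation was repeated, 9 when arrays were centred on their medians, and between 3 and 7 with single arrays left out, 7 without lean control 2; the cause was not tested. It stayed at 4, with the same pairs, with the replicate number as a block. In the fit with that block, which pairs rats by number, 0 fast-fibre genes were called in each comparison, and Casq1 in obese against lean controls had a difference of -0.24 (limma adjusted p = 0.197). The values do not settle whether the numbers pair rats. Correlations of same-numbered rats were not above 0.1 throughout for any 2 groups, and 7 of 32 arrays correlated best with their own number. Between obese controls and ALA rats the median correlation was 0.18 for same-numbered rats and -0.020 for others. Between lean controls and LA rats these medians were -0.063 and -0.0099.

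With 8 arrays per group, the intervals of the differences in the troponin genes included 0 in every comparison. The 5 listed genes without a value are not analysed here. Over all genes, 192 were called in obese against lean controls, 316 with array weights, and 142 to 223 with single arrays left out. ALA against lean controls called 97, but 313 with array weights, 252 with those 2 groups alone, 263 without the 6 arrays, 155 without obese controls 4 and 7, 146 excluding LA rats 7 and 8, and 50 to 120 with single arrays left out; 50 was without ALA rat 7. LA against lean controls called 177, but 369 with array weights, 317 without the 6 arrays, 294 without obese controls 4 and 7, and 110 (without lean control 6) to 241 with single arrays left out. At an adjusted p below 0.1 these counts were 354, 171 and 320. LA against obese controls and ALA against LA called 1 gene each without the filter on dim genes and with every feature tested, and ALA against LA also 1 without obese controls 4 and 7. Among the called genes of obese against lean controls, 24.5% were higher as deposited, 36.9% when quantile normalisation was repeated and 45.2% when arrays were centred. In ALA against lean controls this share was 36.1%, 48.6% and 62.4% in the same settings, and in LA against lean controls 42.4%, 51.2% and 58.4%.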
